A study of Homo sapiens with 2 samples.

Results

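Heat shock chaperones are the proteins that fold newly made chains, hold unfolding ones and return damaged ones to use. To examine how NUDT21 lies along their genes, 42 human genes were taken by name: 13 of the HSP70 family, 11 J-domain partners, 7 of the subunits of the cytosolic chaperonin, 4 of the HSP90 family, the mitochondrial HSPD1 and HSPE1, 2 small heat shock proteins, and 3 regulators. They are 42 of the 20033 protein-coding genes annotated on chromosomes 1 to 22, X and Y. Of these, 41 carried their own name in the annotation, and HSPB11 was found as IFT25, the name it has there. The members were set apart as 10 heat-inducible genes, 4 induced by stress of the endoplasmic reticulum, and 28 not known chiefly for induction by stress, called constitutive here. These classes came from general knowledge of the genes and not from any measurement in these cells.

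The samples were 2 replicates of J.gamma1, a human cell line from T-ALL (acute lymphoblastic leukemia of the T lineage), profiled with an antibody that binds NUDT21. No stress, drug or genetic change is named for either replicate, and both form 1 group. The assay was CUT&Tag, in which the bound antibody recruits an enzyme that cuts and tags nearby DNA for sequencing. Each replicate has its own deposited list of peaks, with 92722 peaks in replicate 1 and 66671 in replicate 2 on the chromosomes above. Each peak carries a fold enrichment over the local background at its summit, its highest point. Fragments and background at each summit were recovered from the deposited values, with a median of 30 fragments per peak in replicate 1 and 20 in replicate 2. Read totals are not given in the sources used here. Genes of the T lineage had a promoter peak in both replicates in 7 of 12 cases, and genes that mark other lineages in 5 of 12, against 57% of all genes, so the T-lineage share was near that of all genes. With 1 group there is no comparison between conditions, and no test across samples was possible.

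NUDT21 is the small subunit of cleavage factor I, which binds UGUA words in pre-mRNA near polyadenylation sites and takes part in choosing where the transcript is cut. Heat shock genes are switched on by HSF1, which under stress forms trimers and binds the heat shock element, an array of nGAAn units in alternating direction. Chaperones of the endoplasmic reticulum, such as HSPA5, answer to other factors. HSP70 proteins work with a J-domain partner that brings the client and an exchange factor that releases it, HSP90 proteins act later on selected clients, and chaperonins enclose the client in a chamber.

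The upstream sequences of 5 heat-inducible genes are shown for reference. They are the near-identical HSPA1A and HSPA1B, HSPA6 without any promoter peak, and HSP90AA1 and DNAJB1, whose strongest promoter peaks ranked highest in this class. Those peaks did not all lie at the starts shown, as described below. Each is RefSeq sequence of GRCh38.p14, read 5′ to 3′ along the gene and ending just before the start, or 11 bases before it for DNAJB1. Capitals mark inverted GAANNTTC repeats, the longer arrays of 3 heat shock units, and the TATA word TATAAA.
HSPA1A, chr6:31815293-31815542, plus strand: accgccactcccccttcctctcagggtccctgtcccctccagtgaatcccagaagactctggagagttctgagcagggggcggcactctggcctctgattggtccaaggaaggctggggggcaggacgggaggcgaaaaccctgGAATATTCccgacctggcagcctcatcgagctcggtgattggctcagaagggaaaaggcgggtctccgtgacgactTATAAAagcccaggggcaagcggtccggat
HSPA1B, chr6:31827488-31827737, plus strand: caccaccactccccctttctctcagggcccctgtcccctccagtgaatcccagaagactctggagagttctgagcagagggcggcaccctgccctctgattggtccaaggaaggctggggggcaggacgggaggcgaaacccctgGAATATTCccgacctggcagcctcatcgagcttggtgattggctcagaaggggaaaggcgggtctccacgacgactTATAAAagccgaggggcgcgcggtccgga
HSPA6, chr1:161524290-161524539, plus strand: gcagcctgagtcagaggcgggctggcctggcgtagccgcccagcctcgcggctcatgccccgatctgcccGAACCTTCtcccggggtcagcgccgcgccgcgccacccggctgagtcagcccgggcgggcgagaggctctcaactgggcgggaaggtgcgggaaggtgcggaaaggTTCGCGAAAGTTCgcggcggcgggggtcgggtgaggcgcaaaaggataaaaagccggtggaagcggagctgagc
HSP90AA1, chr14:102087045-102087294, minus strand: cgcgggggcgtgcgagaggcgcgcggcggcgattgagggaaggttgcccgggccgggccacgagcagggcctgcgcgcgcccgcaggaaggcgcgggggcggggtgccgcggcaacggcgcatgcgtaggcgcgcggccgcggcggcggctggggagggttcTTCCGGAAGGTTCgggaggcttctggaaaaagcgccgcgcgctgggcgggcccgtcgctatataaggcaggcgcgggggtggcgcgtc
DNAJB1, chr19:14518408-14518647, minus strand: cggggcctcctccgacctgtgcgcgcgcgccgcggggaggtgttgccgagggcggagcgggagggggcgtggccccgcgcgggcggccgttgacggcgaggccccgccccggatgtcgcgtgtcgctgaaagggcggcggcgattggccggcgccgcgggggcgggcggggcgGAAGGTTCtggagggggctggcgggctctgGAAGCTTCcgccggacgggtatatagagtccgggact

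In 2 constitutive genes the arrays lay inside annotated exons, and only 30 bases around them are given. Heat shock arrays were thus also present at genes placed here in the constitutive class, a placing that rests on no measurement in these cells.
HSPA8, chr11:123062345-123062374, minus strand: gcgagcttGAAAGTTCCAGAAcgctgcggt
HSPD1, chr2:197500061-197500090, minus strand: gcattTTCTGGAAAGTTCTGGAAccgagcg

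Promoter windows of 300 bases, from 250 before the start to 50 after it, were found for 40 of the 42 members. GAANNTTC, which reads the same on both strands, was present in 12 of these 40 windows (30%), against 5.40% of the windows of 15842 coding genes. By class it was present in 7 of 10 heat-inducible, 5 of 26 constitutive and 0 of 4 endoplasmic reticulum stress genes. The longer array of 3 alternating units, searched on both strands and often overlapping GAANNTTC, was present in 6 members and in 0.366% of all windows. These 6 were HSPA6, HSPA8, HSP90AA1, HSPD1, DNAJA1 and DNAJB6. TATAAA was present in 3 members, HSPA1A, HSPA1B and DNAJC2, and in 6.86% of all windows, searched along the gene's own strand. The share with CCAAT on either strand was close to that of all genes, 37.5% of members against 36.4%. Only exact units were counted, so a window without a match may still hold a less exact array. The window of HSPH1 was set at a start upstream of its canonical start, and that of CCT5 at one downstream. Such matches describe the letters of these windows and say nothing of binding by HSF1, which was not measured here.

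Most chaperone genes carried NUDT21 at a promoter. A promoter peak was one with an edge no more than 3000 bp from any transcript start of the gene in the annotation. It was present in both replicates at 36 of 42 members, against 57% of all protein-coding genes. In replicate 1 it was present at 39 members, against 69.8% of all genes, and in replicate 2 at 37, against 57.9%. All 11 J-domain genes, all 7 chaperonin members, all 4 HSP90 genes, HSPD1, HSPE1 and both small heat shock genes were occupied in both replicates. The HSP70 family had 8 of 13, and the 3 regulators had 2. Beyond the members, 38 of 53 other chaperone and co-chaperone genes were occupied in both replicates, led by STUB1, a ubiquitin ligase that works with HSP70, LONP1, a mitochondrial protease, and STIP1, which links HSP70 to HSP90. Members had a median of 6 annotated starts per gene and all genes 5, and a gene with more starts offers more places for a peak.

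**Figure D1:**
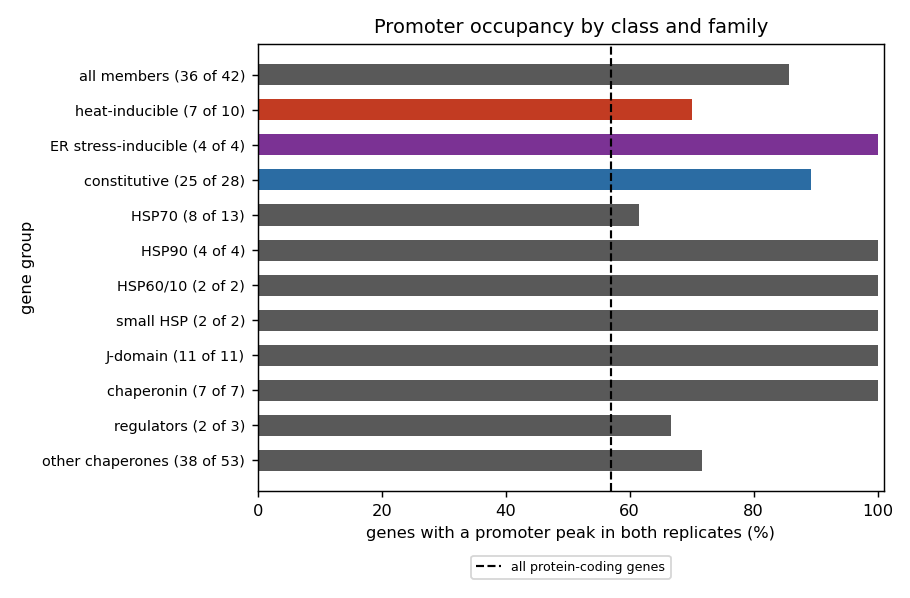
Share of each gene group occupied at promoters in both replicates (horizontal axis, percent, starting at 0) for all members, the 3 expression classes, the 7 families and the list of other chaperones (vertical axis, with counts in brackets). The dashed line is the share of all protein-coding genes, 57%, and every bar reaches beyond it, that of the HSP70 family by the least.

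Heat-inducible genes were occupied in 7 of 10 cases, the endoplasmic reticulum stress genes in 4 of 4, and the constitutive genes in 25 of 28. The 3 heat-inducible genes without a peak in both replicates were HSPA1A, HSPA1B and HSPA6. Without HSPA1A and HSPA1B the count was 7 of 8. Heat-inducible genes had a median of 4 annotated starts and constitutive genes 11. With only the Ensembl canonical start of each gene, 5 of 10 heat-inducible and 24 of 28 constitutive genes were occupied, against 52.3% of all genes. With peak edges within 1000 bp of a start the counts were 5 and 23, against 53.7%. The heat-inducible share was then near that of all genes. Strength was compared by the percentile of a peak's fold enrichment within its own list, which is the percent of peaks of that replicate with a lower fold. For each gene the strongest promoter peak was taken. Among genes occupied in both replicates, the heat-inducible median percentile was 89.7 in replicate 1 and 84.8 in replicate 2, and the constitutive median 91.6 and 83.7. The heat-inducible minus constitutive difference was therefore negative in replicate 1 and positive in replicate 2, with a mean of -0.45 ± 2.14 percentile points (SD, n = 2). The sign also changed with the settings. When only the Ensembl canonical start of each gene was used, the difference was 5.11 ± 3.53, and 10.2 ± 6.59 when peaks near another protein-coding start were left out. In the main setting the difference between the classes was thus smaller than the spread of the replicates. The 4 endoplasmic reticulum stress genes had medians of 81.0 and 53.9.

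Over all members occupied in both replicates, the median percentile was 90.7 in replicate 1 and 81.0 in replicate 2, and over all such protein-coding genes 88.1 and 78.4. The members' median was thus somewhat higher in both replicates. The means were 85.9 ± 6.81 for members and 83.2 ± 6.87 for all genes (SD, n = 2). Both SDs are the spread between the same 2 lists, so they do not measure the spread of the difference between the groups. The strongest promoter peak was at percentile 80 or higher in both lists at 18 of 42 members, against 25.4% of all genes. Of the 36, 16 lay above the median of all genes in both replicates and 14 below it in both, so the family was spread over the whole range. Members had a median of 80 fragments at the summit in replicate 1 and all genes 56, over a background of 10.1 against 7. In replicate 2 they had 43.5 against 29 fragments, over a background of 5.31 against 4.25. Fragments and background were thus both higher at members than over all genes.

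**Figure D2:**
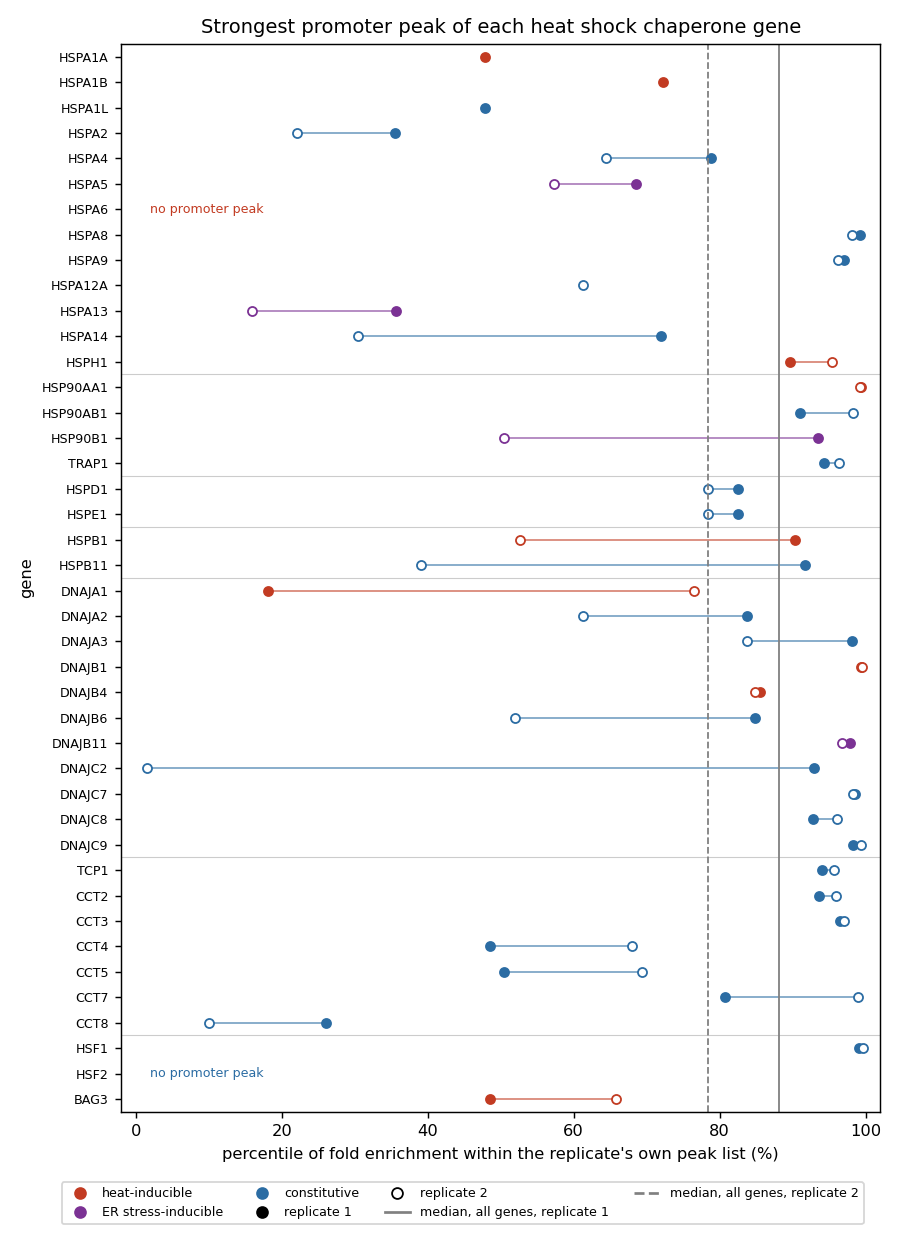
Percentile of fold enrichment of the strongest promoter peak within each replicate's own list (horizontal axis, percent) for each of the 42 genes, ordered by family (vertical axis). Filled points are replicate 1, open points replicate 2, colours mark the expression class, and grey lines are the medians of all occupied genes. DNAJB1, HSP90AA1, HSF1, DNAJC9 and HSPA8 lie at the right in both replicates, and DNAJC2 spans nearly the whole axis.

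Among the HSP70 genes, HSPA8 was highest. It encodes the constitutive cytosolic HSP70, which folds new chains in unstressed cells. Its start peak had a fold of 14.1 with 304 fragments in replicate 1 and 9.89 with 108 fragments in replicate 2, at percentiles 99.2 and 98.1. The summits lay 262 and 208 bp upstream of the canonical start, 38 bp upstream and 16 bp downstream of the middle of a heat shock array, the one shown above. Other members with an array varied. The nearest DNAJA1 summits lay 140 and 271 bp upstream of its array. Those of DNAJB6 lay 36 bp upstream in replicate 1 and 18809 bp downstream in replicate 2, and HSPA6 had no promoter peak. HSPA9, the mitochondrial HSP70, followed with folds of 9.44 and 8.46 at percentiles 97.003 and 96.2. HSPH1, a heat-inducible exchange factor for HSP70, had folds of 6.58 and 8.07 at percentiles 89.7 and 95.4.

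The remaining occupied HSP70 genes were lower. HSPA4, another exchange factor of the HSP110 kind, had percentiles of 78.8 and 57.5 at its start peak, with a peak at 64.4 inside the gene, 1711 bp downstream, as its strongest in replicate 2. HSPA14, which sits on ribosomes, had 71.9 and 30.5. HSPA2, best known from the testis, had folds of 3.50 and 3.39 at percentiles 35.5 and 22.1. HSPA13, an HSP70 of the microsomes, had 3.51 and 3.18 at 35.6 and 15.96. With mean percentiles of 28.8 ± 9.47 and 25.8 ± 13.9 (SD, n = 2), HSPA2 and HSPA13 were lower than all other members but CCT8, and did not differ from each other beyond that spread. CCT8 was lowest, at 18.04 ± 11.4.

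HSPA1A and HSPA1B encode the same major heat-inducible HSP70 and lie side by side, their starts 12195 bp apart. HSPA1L, a relative best known from the testis, runs the other way from a start 260 bp before that of HSPA1A, so both share the upstream sequence shown for HSPA1A. In replicate 1, HSPA1A had a peak at chr6:31816542-31816988 with a fold of 3.89 and 14 fragments, at percentile 47.8. Its summit lay 1168 bp downstream of the start in the coding exon. HSPA1B had a peak at chr6:31828049-31828406 with a fold of 3.63 and 13 fragments, and one at chr6:31829482-31829826 with a fold of 4.92 and 18 fragments, at percentiles 39.7 and 72.3. Their summits lay 586 and 1920 bp into the gene. The only promoter peak of HSPA1L was that of HSPA1A. In replicate 2 none of the 3 genes had a promoter peak, and the nearest peak lay 19458 bp from the start of HSPA1A and 7263 bp from that of HSPA1B. No start of the 3 genes was inside a peak in either replicate. Of 160 protein-coding genes within 2 Mb of HSPA1A, 74 (46.2%) were occupied in both replicates.

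The near-identity of the pair bears on these values. HSPA1A and HSPA1B matched at 2297 of 2529 aligned positions over the gene (90.8%) and at 93.6% over the 250 bases before the start. Every 31-base word of the HSPA1A peak, every word of the first HSPA1B peak and 84.8% of the words of the second recurred elsewhere on the main chromosomes. The shares were 32.3% and 32.4% in windows reaching 500 bp to each side of the starts. hg38 also holds alternate sequences of this region, and 96.8% of the words of each start window were found there as well. A read made only of such words has more than 1 equally good place in the genome, so the values of HSPA1A, HSPA1B and HSPA1L are uncertain and cannot be assigned to a single gene. How the authors treated reads with several placements is not given in the sources used here, and its part in the low values was not tested.

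**Figure D3:**
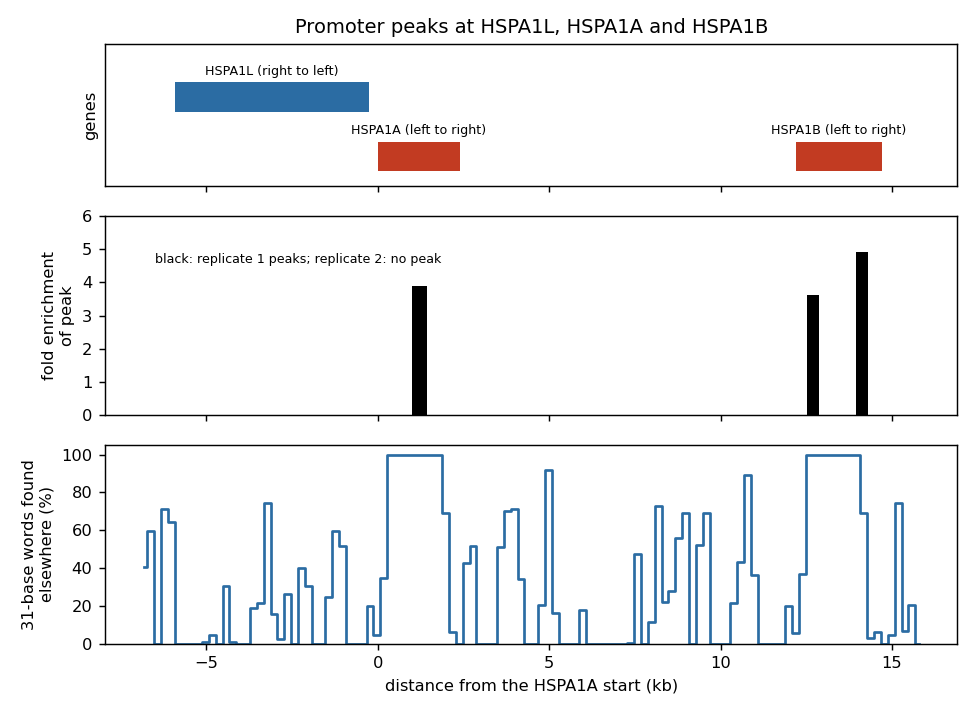
Map of HSPA1L, HSPA1A and HSPA1B by distance from the HSPA1A start (kb), with the genes (top), the fold enrichment of the replicate 1 promoter peaks (middle, black bars drawn to width), and the percent of 31-base words in each 200-bp bin that recur elsewhere on the main chromosomes (bottom). All 3 peaks of replicate 1 lie over the plateaus of repeated words inside the HSPA1A and HSPA1B genes, and replicate 2 has no peak at the 3 genes.

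HSPA6, a strictly heat-inducible HSP70, had no promoter peak. Its upstream sequence holds 2 GAANNTTC repeats and an array of 3 units. Over all coding genes, 45.8% of 824 with GAANNTTC and 54.5% of 55 with an array were occupied in both replicates. The share of all protein-coding genes was 57%. The nearest peaks lay 6132 bp from the HSPA6 start in replicate 1 and 5859 bp in replicate 2. Of its start window, 58.1% of the words recurred on the main chromosomes, mostly at the start of HSPA7, its neighbour and copy. That copy held a peak in replicate 1 with a fold of 4.03 at percentile 51.9, and none in replicate 2. The position of HSPA6 is therefore also uncertain. HSPA12A, a distant relative of HSP70 rich in the brain, had a promoter peak in replicate 2 only, with a fold of 4.63, 106565 bp upstream of its canonical start and beside ENO4. At the canonical start of HSPA12A the nearest peak lay 18607 bp away in replicate 1 and 106391 bp in replicate 2. HSF2 is described with the regulators. The GC content of their promoter windows was 70% at HSPA6, 71% at HSF2 and 81.7% at HSPA12A, and 60.3% at HSPA1A, 62.3% at HSPA1B and 61% at HSPA1L, against a median of 64% over members.

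The J-domain genes were all occupied and held the strongest member. DNAJB1, the main heat-inducible partner of cytosolic HSP70, had a mean percentile of 99.5 ± 0.12 (SD, n = 2), the highest of the 36 occupied in both replicates. At its canonical start the fold was 14.7 in replicate 1 and 13.7 in replicate 2, with summits 241 and 395 bp upstream. In replicate 1 a peak 46192 bp upstream, near another start of DNAJB1 and beside TECR, was slightly higher at 14.9. The mean percentile takes that peak in replicate 1 and the start peak in replicate 2. At the canonical start the percentiles of DNAJB1 were 99.4 and 99.5. DNAJC9, which chaperones histones, had folds of 11.2 and 12.9 at percentiles 98.3 and 99.4. DNAJC7 had folds of 11.7 and 10.1 at percentiles 98.5 and 98.3. These genes were near the top of both lists.

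Other J-domain genes ranged from steady to far apart between replicates. DNAJA1, heat-inducible and a partner of HSPA8, had a fold of 2.95 over a background of 19.0 in replicate 1 and 5.37 over 7.93 in replicate 2, at percentiles 18.1 and 76.5. DNAJB4, also heat-inducible, had folds of 5.95 and 6.02 at percentiles 85.6 and 84.8, but both summits lay far from its canonical start, 25491 and 25549 bp upstream, beside FUBP1 and GIPC2. DNAJC2, a ribosome-bound partner of HSPA14, had a fold of 7.38 at percentile 93.0 in replicate 1 and 2.47 at percentile 1.53 in replicate 2, the widest gap of all members. DNAJB6 had percentiles of 84.8 and 51.9, and its replicate 2 summit lay 28937 bp downstream of the canonical start. Within 150 bp of that summit, 57.6% of the 31-base words recurred elsewhere on the main chromosomes. DNAJA3 had folds of 5.62 and 5.92 at its canonical start, and near another start 29334 bp downstream a fold of 10.9 in replicate 1 and 4.23 in replicate 2. DNAJA2 had folds of 5.77 and 4.63, and DNAJC8 7.31 and 8.37. Of the 36 genes, 7 differed by more than 30 percentile points between replicates, and 6 of the 7 were lower in replicate 2, the exception being DNAJA1. The others were HSPA14, HSP90B1, HSPB1, HSPB11, DNAJB6 and DNAJC2. The share of all occupied genes with such a gap was not counted. The median percentile of all occupied genes was also lower in replicate 2, 78.4 against 88.1, so the direction is not particular to these members. Over the 36 members the rank correlation of percentiles between replicates was 0.698 (Spearman), and 0.804 over all occupied genes, which share the libraries and the local background.

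Of the HSP90 genes, HSP90AA1, the heat-inducible cytosolic HSP90, had a mean percentile of 99.3 ± 0.12 (SD, n = 2). Its strongest peaks in the 2 replicates lay at different sites, so this SD does not measure agreement at the same site. In replicate 1 its strongest peak, with a fold of 14.6 and 142 fragments, had its summit 182 bp upstream of the canonical start and 100 bp upstream of the heat shock array. In replicate 2 the start peak had a fold of 6.60 at percentile 89.3, and the strongest peak, with a fold of 11.98, lay 4199 bp inside the gene, with 53.1% of the words around it repeated elsewhere. A peak at that inner site was also present in replicate 1, with a fold of 10.6. A further 11 and 9 peaks lay outside promoter windows within the long annotated span of HSP90AA1, all upstream of its canonical start. HSP90AB1, the constitutive cytosolic form, had folds of 6.85 and 10.1 at percentiles 91.0 and 98.3. TRAP1, the mitochondrial form, had folds of 7.84 and 8.51 at percentiles 94.3 and 96.3, with summits 26702 and 26700 bp downstream of its canonical start, and 5.44 and 5.20 at that start. By their strongest promoter peaks, all 3 of these lay above the median of all genes in both replicates. At its canonical start TRAP1 had percentiles of 80.5 and 73.6, below those medians of 88.1 and 78.4.

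HSP90B1 is the HSP90 of the endoplasmic reticulum. Its start peak had a fold of 7.51 with 113 fragments in replicate 1 and 4.24 with 41 fragments in replicate 2, at percentiles 93.4 and 50.5. DNAJB11, a J-domain partner of HSPA5, had folds of 10.4 and 8.70 at percentiles 97.8 and 96.7. Its peak also lay beside TBCCD1, which starts on the other strand. HSPA5, the HSP70 of the endoplasmic reticulum, had a start peak with a fold of 4.71 and 91 fragments in replicate 1 and 4.49 and 46 fragments in replicate 2, at percentiles 68.6 and 57.3. The summits were 73 and 72 bp upstream of the canonical start. This class thus held genes from near the top to near the bottom.

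HSPA5 had a second, stronger site at the other end of the gene. In replicate 1 a peak at chr9:125235001-125235572 had a fold of 13.3 with 100 fragments, and in replicate 2 one at chr9:125234994-125235601 had a fold of 13.8 with 59 fragments. Their percentiles were 99.1 and 99.6. The summits lay 426 and 423 bp before the gene end, in the 3′ UTR, 3 bp apart. Among all peaks outside promoters within 1000 bp of a protein-coding gene end, the HSPA5 peak was the 6th highest of 1486 in replicate 1 and the highest of 1126 in replicate 2, where the median folds were 3.97 and 4.22. HSPA5 was the only 1 of the 42 members with such a gene-end peak in both replicates, against 3.74% of all genes, a share of members (2.38%) below that of all genes. BAG3 and CCT3 had one in replicate 1 only, and DNAJB6 in replicate 2 only.

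Within 150 bp of the gene-end summits of HSPA5, 39.9% of the 31-base words recurred elsewhere, against 0% at the HSPA5 start peak. Repeated sequence was therefore part of this site, and its part in the height of the peak was not tested.

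**Figure D4:**
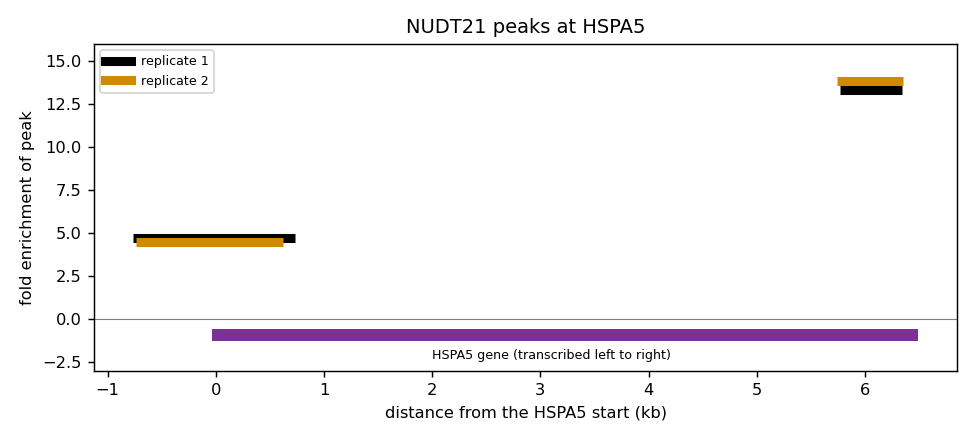
Fold enrichment (vertical axis) of the NUDT21 peaks at HSPA5 against distance from its start (kb), drawn to width for replicate 1 (black) and replicate 2 (orange), with the gene as a purple bar. The start peaks lie at 4.71 and 4.49 and those near the gene end at 13.3 and 13.8.

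The mitochondrial chaperonin HSPD1 and its lid HSPE1 start close together in opposite directions, and both had the same peak as their strongest. In replicate 1 its fold was 5.66, from 263 fragments and a background of 42, and in replicate 2 it was 5.49, from 133 fragments and a background of 23.4. Among the strongest promoter peaks of members, only that of HSPA8 had more fragments in replicate 1 and none had more in replicate 2, while the percentiles were 82.6 and 78.3. In replicate 2 a weaker peak with a fold of 4.61 also lay near the starts of both, and HSPD1 had a further one at another start, with folds of 3.85 and 2.64. The summits of the shared peak lay 62 and 60 bp downstream of the middle of the nearest heat shock array of HSPD1. The local background at this promoter was the highest among the members in both replicates. The 2 backgrounds may not be independent. Those of replicates 1 and 2 kept nearly the same proportion here, at HSPA5 (17 and 9.47) and at HSPH1 (14 and 7.80). They did not at DNAJA1 (19 and 7.93). Agreement of the background between replicates is therefore not counted as a repeated observation.

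The cytosolic chaperonin folds actin and tubulin, and 7 of its subunits were members. TCP1 had percentiles of 94.0 and 95.6, CCT2 93.6 and 95.9, and CCT3 96.5 and 97.1. CCT7 had folds of 5.47 and 11.3. CCT4 had percentiles of 48.6 and 68.0 and CCT5 of 50.4 and 69.3, so these were lower in both replicates than the first 3. CCT8 had folds of 3.22 and 2.98 at percentiles 26.1 and 9.99, with summits 3555 and 3538 bp upstream of its canonical start, beside MAP3K7CL. Within 150 bp of these summits, 31.4% and 37.6% of the 31-base words recurred elsewhere on the main chromosomes. Over the canonical start CCT8 had a peak in replicate 1 only, with a fold of 3.02. The percentiles of these 7 ran from 9.99 to 98.9. The remaining subunit, CCT6A, was not a member and had percentiles of 58.1 and 82.5.

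The small heat shock gene HSPB1, heat-inducible and abundant in many stressed cells, had a fold of 6.71 at percentile 90.3 in replicate 1, 906 bp downstream of the canonical start and 2 bp from another start. In replicate 2 its strongest peak had a fold of 4.31 at percentile 52.7 and lay 2630 bp upstream. Over the canonical start a peak was present in replicate 1 only, with a fold of 2.14. HSPB11, a small protein of the cilium by its later name, had folds of 6.99 and 3.89 at percentiles 91.6 and 39.1.

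Among the regulators, HSF1, the main heat shock factor, had a high peak near 1 of its starts that lay mostly beyond the gene. This peak had a fold of 13.35 in replicate 1 and 13.97 in replicate 2, at percentiles 99.1 and 99.6. It was broad, 36470 and 16574 bp long, and its summits lay 24316 and 24246 bp from the canonical start, beside DGAT1. These summits lay past the annotated end of HSF1, and the peak is counted for HSF1 because its edge lies within 3000 bp of another start of the gene. The peak over the canonical start of HSF1 had a fold of 6.27 in replicate 1, at a summit 5381 bp downstream, and 7.34 in replicate 2, at a summit 557 bp downstream. Of 95 protein-coding genes within 2 Mb of HSF1, 90 (94.7%) were occupied in both replicates. HSF2, a factor of development and of sustained stress, had no promoter peak, and the nearest peaks lay 71938 bp away in replicate 1 and 3464429 bp in replicate 2. None of the 9 protein-coding genes within 2 Mb of HSF2 was occupied in both replicates. BAG3, heat-inducible and an exchange factor for HSP70 in autophagy, had a fold of 3.90 in replicate 1, 84 bp upstream of its start. In replicate 2 its peak had a fold of 4.82 and lay 7718 bp downstream, and no peak was at the start.

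Summits of members lay close to starts. The median distance from the strongest summit to the nearest start of the gene was 125.5 bp in replicate 1 and 186.5 bp in replicate 2, against 216 and 308 bp over all occupied genes. The summit was within 500 bp of a start at 32 and 28 of the 36 members, that is 88.9% and 77.8%, against 65.8% and 59.4% of all. From the canonical start, 22 of the 36 were within 500 bp in both replicates, against 39.1% of all occupied genes. In the canonical transcript the summit lay upstream of the start at 28 members in replicate 1 and 24 in replicate 2, in an intron at 4 and 8, and in a coding exon at 2 in each. The strongest peaks of both replicates overlapped at 29 of the 36 members, against 71.2% of all occupied genes, and their summits lay within 200 bp at 27, against 50.5%. The canonical start was inside a peak in both replicates at 27 of the 42 members, against 33.9% of all genes.

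**Figure D5:**
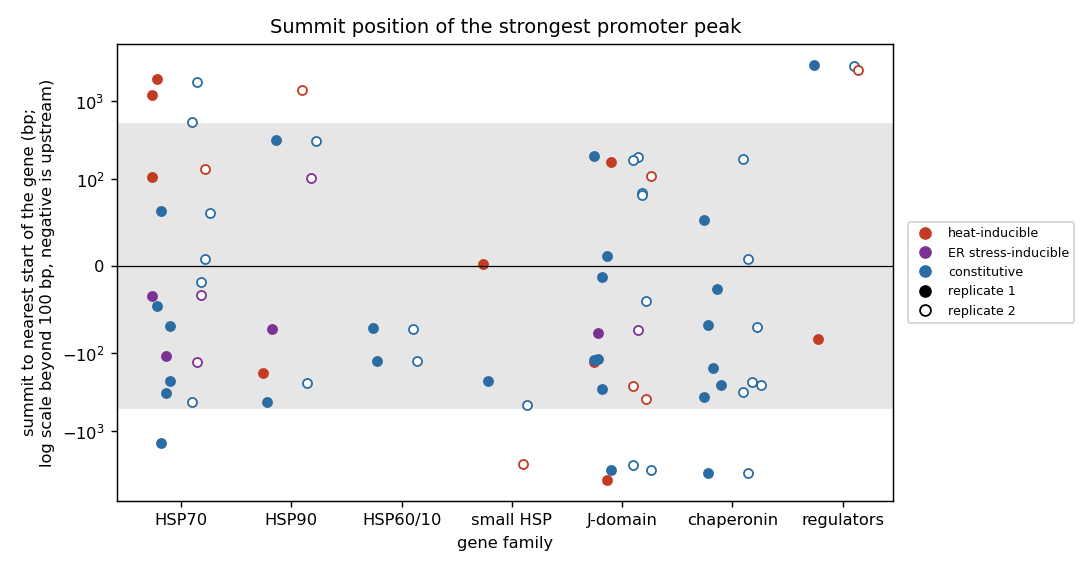
Distance from the summit of the strongest promoter peak to the nearest start of the gene (vertical axis, bp, linear within 100 bp and logarithmic beyond, negative upstream) by family (horizontal axis). Filled points are replicate 1 and open points replicate 2, colours mark the expression class, and the grey band spans 500 bp either side. Most points lie in the band, and those beyond it include HSPA1A and HSPA1B in replicate 1, CCT8, DNAJC8 and HSF1.

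Many of these promoters were shared. At 18 of the 36 members the strongest peak also lay within 3000 bp of the start of another protein-coding gene in both replicates, against 32% of all occupied genes, and at 19 in replicate 2. Examples were DNAJA1 with APTX, DNAJB11 with TBCCD1, CCT3 with TSACC, CCT4 with COMMD1, TCP1 with MRPL18 and DNAJC7 with NKIRAS2. A peak there cannot be assigned to 1 of the genes. With such peaks left out, 23 of 42 members had a promoter peak in both replicates, against 42.5% of all genes.

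Beyond promoters, 10 of the 42 members had a peak within the annotated span of the gene in both replicates, against 22.6% of all genes, so the members' share was near that of all genes. DNAJB6 had 11 in replicate 1 and 12 in replicate 2, HSP90AA1 11 and 9, TRAP1 7 and 5, DNAJB1 6 and 5, and CCT3 6 and 4. All of those of HSP90AA1 and DNAJB1, and 2 of those of CCT3 in each replicate, lay upstream of the canonical start, within the span of longer annotated transcripts. Gene length was not taken into account.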

How the data were processed

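NUDT21 CUT&Tag peaks of 2 J.gamma1 replicates were analysed. According to the study's methods, reads were cleaned with fastp, aligned with Bowtie2 (version 2.2.5) against hg38 and cleared of duplicates with Picard, and peaks were called with MACS3, version 3.0.1 in the submitters' processing notes. Each replicate has its own deposited peak list. A control library is not given in the sources used here. Whether the backgrounds of both replicates came from a shared control was not tested. The deposited lists hold, from the authors' peak caller, the fold enrichment at each summit (a ratio) and its −log10 p and −log10 q. The deposited score repeats the −log10 q and was not used. Absolute depth is unknown.

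Folds were ranked within each list. Fragments and local background were solved from the fold and −log10 p, which was possible for 99.9% of peaks in replicate 1 and 100% in replicate 2, and the solution was tested on simulated data. Genes and starts came from GENCODE release 44, promoter sequences from RefSeq (GRCh38.p14). Word counts covered all 31-base words of hg38. Gene-end peaks were peaks outside promoters with a summit no more than 1000 bp from the end of a gene. One sequence is not reported here.

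The members, their classes and the lists of other chaperones, T-lineage genes and other-lineage genes were chosen with earlier results of these data known. All 42 members are subjects. Full values were set for HSPA1A, HSPA1B, HSPA1L, the heat-inducible genes, HSPA5, HSP90B1, HSPA8, HSP90AB1, HSPD1, HSPE1, HSF1 and HSF2, members without a promoter peak in a replicate, and the 3 highest and 3 lowest mean percentiles. Distances to promoters and gene ends, starts, peak thresholds, ranking, lists and each replicate were varied. Python 3.11.15, numpy 2.4.6, pandas 2.3.3, scipy 1.17.1, pysam 0.24.0 and samtools 1.23.1 were used.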

Additional observations from a re-analysis of the deposited data

Results flagged for a closer look

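Peaks on the alternate sequences of hg38 were outside the values above. Over the copies of the HSPA1A and HSPA1B genes on 4 alternate sequences of the region, replicate 1 had 7 peaks, with folds from 2.96 to 4.403, and replicate 2 had 0. These were listed as a signal in data that no comparison used. The copy of the DNAJA3 start window on an alternate sequence of chromosome 16 matched all of its 31-base words and held a peak with a fold of 5.997 in replicate 1 and 7.35 in replicate 2. At the canonical start of DNAJA3 on the main chromosome the folds were 5.62 and 5.92, so the site was represented in both places.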

How the results depend on the processing

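No paired analysis was possible because both replicates belong to 1 group. Of 63 values recomputed for 7 results, 40 stayed within the replicate SD or within 1.5 times the count. When each list was cut to its 10000 most significant peaks by −log10 p, 21 members were occupied in both replicates, against 24.6% of all genes. They included 4 heat-inducible and 15 constitutive genes, and the median percentile was 61.96. Fewer peaks were kept by construction. With peaks near another protein-coding start left out, 23 members and 15 constitutive genes were occupied, against 42.5% of all genes. The median summit distance was then 240.5 bp. It was 233.5 bp from canonical starts only. Ranking by −log10 p gave a median percentile of 93.6. The broad heat-inducible list had 13 of 16 genes occupied, against 57% of all genes. The heat-inducible minus constitutive difference was 4.86 with edges within 1000 bp, 5.11 with canonical starts, -10.4 at a −log10 q of 5 or more, 9.74 in the 10000 peaks, 10.2 without shared promoters, 1.79 by −log10 p and -4.60 with the endoplasmic reticulum stress genes added, so its sign depends on the setting, and the cause was not tested. Leaving out each replicate gave a range of 78.3 to 89.7 for the median percentile, and -5.73 (without replicate 2) to 3.76 (without replicate 1) for the difference. A gene-end peak was present at 2 members without replicate 1, against 5.53% of all genes. Without replicate 2 it was present at 3, against 7.38%. With summits within 3000 bp of the gene end, 8 members had a gene-end peak in both replicates, against 10.5% of all genes. Replicate 2 had fewer peaks and fewer recovered fragments per peak, its read total is unknown, and its absent peaks may lie below detection.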
